A study of Homo sapiens with 8 samples.

Results

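Some m6A sites of human osteosarcoma cells were listed in both METTL14-knockdown peak lists and in the control list of one cell line, while the control list of the other line had no peak there. The 4 deposited peak lists were pooled, and peaks whose spliced blocks shared at least 1 bp on the same strand were joined, which gave 18714 sites. Of these, 7374 had a peak in both shMETTL14 lists. Members were the 1316 sites that also had a peak in exactly one control list, and they lay on 1189 genes. They form 2 classes: 704 sites on 647 genes were missing in 143B NC (and present in U2OS NC), and 612 sites on 575 genes were missing in U2OS NC (and present in 143B NC). Members were selected on the presence or absence of the authors' peaks in the 4 lists, so their presence, number, fold enrichment and rank in these lists are described and carry no test.

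U2OS and 143B are established human osteosarcoma cell lines. In the shMETTL14 groups each line carried a lentiviral short hairpin RNA against METTL14, and in the NC groups the control hairpin that the labels call shNC. Each of the 4 groups has 1 library of RNA enriched with an anti-m6A antibody and 1 input library, and 1 peak list, so no difference between groups has a replicate check. The labels do not say whether cells were cloned or how far METTL14 was reduced. Each list gives a p-value and a fold enrichment per peak, both the authors' own. How the fold was scaled, and whether a constant was added to its denominator, is not stated. Their values were compared only within a list, and between lists only as percentiles of each list. Read depth is unknown, since the lists hold no counts. Per list, the sites numbered 9849 in U2OS shMETTL14, 12236 in 143B shMETTL14, 10771 in U2OS NC and 11182 in 143B NC. Of 8 osteoblast markers, COL1A1, RUNX2 and SPARC had a peak in both shMETTL14 lists and in U2OS NC, and RUNX2 and SPARC alone in 143B NC. Of the epithelial markers KRT8 had peaks in all 4 lists and KRT18 in both 143B lists, and of the neural markers MAP2 and NES had peaks in both U2OS lists and TUBB3 in U2OS NC. The blood, immune and endothelial markers had none in any list.

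N6-methyladenosine is written on messenger RNA mainly by METTL3, the catalytic subunit, together with METTL14, which holds the RNA substrate. FTO and ALKBH5 can remove the mark, and YTH-domain proteins read it and influence decay and translation of the transcript. In mammalian messenger RNA the mark is known to gather near stop codons, in long internal exons and in 3' UTRs. A site is listed only when antibody-enriched reads exceed input enough for the authors' caller, so a missing peak is not a measured absence of m6A. In such data, less methylation and less RNA of the transcript cannot be told apart without the input counts, which were not analysed here.

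Among sites present in both shMETTL14 lists and in U2OS NC, 704 of 6340 had no 143B NC peak, which is 11.1% (95% interval 10.3 to 11.9). Among sites in both shMETTL14 lists and in 143B NC, 612 of 6248 had no U2OS NC peak, which is 9.80% (9.07 to 10.6). The intervals here and below are exact Clopper-Pearson intervals and cover counting error only. The corresponding gaps in the shMETTL14 lists bracketed these shares. Of sites in both controls and 143B shMETTL14, 752 (11.8%) had no U2OS shMETTL14 peak, and of sites in both controls and U2OS shMETTL14, 340 (5.69%) had no 143B shMETTL14 peak. Within a line, 31.7% of the 143B shMETTL14 sites had no 143B NC peak and 24.0% of the U2OS shMETTL14 sites had no U2OS NC peak. The members are the part of these that the other line's pair of lists also held. A further 422 sites were in both shMETTL14 lists and in neither control.

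METTL14 itself, the gene targeted by the hairpin, held 1 member. METTL3 could hold none: a member needs a peak in both shMETTL14 lists, and METTL3 had no peak in U2OS shMETTL14. The METTL14 member lay at the annotated stop codon of transcript ENST00000506780.1, at chr4:119631339-119631489 (hg19, plus strand), and was missing in 143B NC. Its fold enrichment was 5.45 in U2OS shMETTL14, 2.88 in 143B shMETTL14 and 3.96 in U2OS NC. Its rank by p-value was near the bottom of both shMETTL14 lists, at percentiles 2.58 and 2.91, where 100 is the lowest p-value, and at 49.9 in U2OS NC. The 143B NC list did hold a METTL14 peak in the 3' UTR, 657 bp away. Peaks do not measure the RNA level, so these values do not check the knockdown. The list of m6A writers, erasers and readers gave 2 of 22 sites missing in 143B NC (9.09%, 1.12 to 29.2). This was near the 9.55% of all sites in both shMETTL14 lists. FTO, the demethylase, held the other member on the list of m6A genes. That site lay in its 3' UTR at chr16:54148159-54148309, with folds of 3.45 in U2OS shMETTL14, 5.26 in 143B shMETTL14 and 2.31 in U2OS NC. Its percentiles by p-value were low, at 12.7 in U2OS shMETTL14, 25.9 in 143B shMETTL14 and 0.441 in U2OS NC. An overlap of only 3 bp held its peaks of the 3 lists together, so it is an uncertain shared site. FTO had no peak at all in 143B NC. No m6A gene held a site missing in U2OS NC (0 of 22 sites, upper bound 15.4%), against 8.30% of all sites in both shMETTL14 lists. MN1, a transcriptional coregulator, could hold no member, since it had no peak in 143B shMETTL14.

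Most members were sites of low to middle rank. For the class missing in 143B NC, the median percentile by p-value was 41.9 in U2OS shMETTL14, 35.9 in 143B shMETTL14 and 43.6 in U2OS NC. For the class missing in U2OS NC, it was 26.8 in U2OS shMETTL14, 49.0 in 143B shMETTL14 and 45.1 in 143B NC. The 5636 sites found in all 4 lists had medians of 69.0 in U2OS shMETTL14, 74.9 in 143B shMETTL14, 71.3 in U2OS NC and 71.4 in 143B NC. Above percentile 75 in each of their lists stood 2 of the 704 and 2 of the 612 members, against 1537 of the sites in all 4 lists. Above percentile 90 there was no member, against 606 of the sites in all 4 lists. Sites missing in a knockdown list gave 1 of 340 (143B shMETTL14) and 1 of 752 (U2OS shMETTL14) above percentile 75 in each list. None of these stood above percentile 90 in each list. The scarcity of high ranks by p-value is therefore not particular to gaps in the controls. Median peak widths of members were 121 to 210 nucleotides over the lists.

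Within each class, the lowest of the 3 ranks fell most often in the shMETTL14 list of the same line as the missing control. Of the sites missing in 143B NC, 308 (43.8%, interval 40.0 to 47.5) ranked lowest in 143B shMETTL14, against 187 (26.6%) in U2OS NC. Of the sites missing in U2OS NC, 348 (56.9%, interval 52.8 to 60.8) ranked lowest in U2OS shMETTL14, against 151 (24.7%) in 143B NC. The same held when the missing list was a knockdown one: 143B NC was lowest for 47.4% of sites missing in 143B shMETTL14, and U2OS NC for 56.4% of sites missing in U2OS shMETTL14. In each of these classes the lowest rank thus fell most often in the other list of the line whose list was missing. For sites in all 4 lists, the lowest of the 4 ranks fell in U2OS shMETTL14 for 29.8% and in 143B shMETTL14 for 18.1%. It fell in U2OS NC for 25.5% and in 143B NC for 26.6%.

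**Figure D1:**
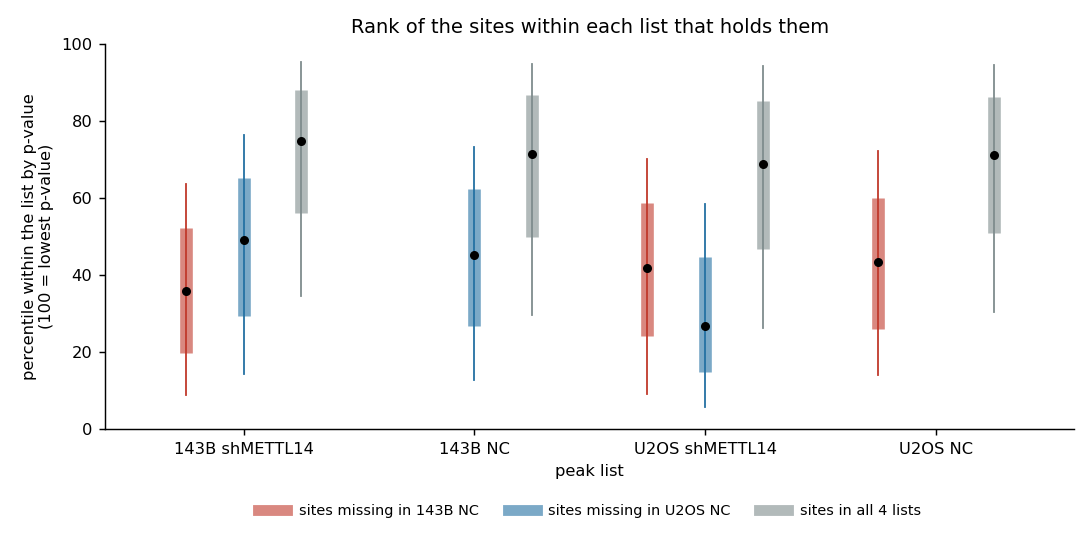
Percentile by p-value of the sites within each list that holds them (vertical axis, 100 is the lowest p-value), for sites missing in 143B NC, sites missing in U2OS NC and sites in all 4 lists. Dots are medians, thick bars run from the lower to the upper quartile and thin lines from the 10th to the 90th percentile of the sites; the class missing in U2OS NC is lowest in U2OS shMETTL14, with a median of 26.8, and the sites in all 4 lists are highest throughout.

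The members with the lowest p-values in all of their lists show what the stronger part of each class holds. Among the sites missing in 143B NC, the first by this rule lay on NAB2, a corepressor of the EGR transcription factors, over the start codon at chr12:57482890-57484959. Its fold was 30.5 in U2OS shMETTL14, 6.33 in 143B shMETTL14 and 9.63 in U2OS NC, and its rank lay between percentiles 77.0 and 86.2 in the 3 lists. The next 143B NC peak on NAB2 began 268 bp away in the coding sequence, with a fold of 4.40 in its own list. ORAI2, a store-operated calcium channel subunit, had a 3' UTR site at chr7:102089199-102089439 with folds of 30.5 in U2OS shMETTL14, 32.1 in 143B shMETTL14 and 13.5 in U2OS NC. KPNA6, an importin alpha that carries proteins into the nucleus, had folds of 7.99 in U2OS shMETTL14, 32.1 in 143B shMETTL14 and 6.60 in U2OS NC in its 3' UTR, and a 143B NC peak 179 bp away. On these 3 genes the control list of 143B thus held a separate peak within 300 bp of the member, and ORAI2 left the class when peaks within 100 bp of each other were joined.

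Other strong members of this class lay on genes with no 143B NC peak. FSTL3, a secreted inhibitor of activin, had folds of 2.81 in U2OS shMETTL14, 3.45 in 143B shMETTL14 and 3.85 in U2OS NC over 745 bases of its 3' UTR. BIRC5, which encodes survivin, had low folds of 1.98 in U2OS shMETTL14, 2.11 in 143B shMETTL14 and 1.66 in U2OS NC in its 3' UTR. Also without a 143B NC peak was FAM103A1, a partner of the cap methyltransferase, with folds of 5.27 in U2OS shMETTL14, 4.06 in 143B shMETTL14 and 4.60 in U2OS NC, although the site was not a member when strand was ignored. CENPO, a centromere protein on the plus strand, and ADCY3, an adenylate cyclase on the minus strand, gave 2 members that cover the same stretch of chromosome 2. Whether reads were assigned by strand is not given in the sources used here, so these 2 sites may hold the same reads and are uncertain.

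Among the sites missing in U2OS NC, the 12 with the lowest p-values lay on 9 genes of varied function. GRPEL1, a cochaperone of mitochondrial import, had a site over 3 exon blocks at chr4:7062691-7065849 with folds of 3.64 in U2OS shMETTL14, 2.28 in 143B shMETTL14 and 2.57 in 143B NC. C10orf2, the mitochondrial DNA helicase Twinkle, had folds of 7.38 in U2OS shMETTL14, 3.68 in 143B shMETTL14 and 4.60 in 143B NC in its 3' UTR. CSTF2, a subunit of the factor that cleaves pre-messenger RNA before polyadenylation, had folds of 4.47 in U2OS shMETTL14, 3.46 in 143B shMETTL14 and 3.28 in 143B NC. FH, the fumarate hydratase of the citric acid cycle, had folds of 3.05 in U2OS shMETTL14, 2.70 in 143B shMETTL14 and 3.13 in 143B NC over its stop codon. GRPEL1, CSTF2 and FH had no peak in U2OS NC.

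RPL28, a protein of the large ribosomal subunit, held 4 of the 12 strongest members of this class. Their folds were low, from 1.51 to 1.64 in U2OS shMETTL14, from 1.74 to 1.86 in 143B shMETTL14 and from 1.91 to 2.26 in 143B NC. Their ranks by p-value were nevertheless high, at percentiles 96.4 to 96.6 in 143B shMETTL14, 97.2 to 97.8 in 143B NC and 68.0 to 75.1 in U2OS shMETTL14. RPL28 had no peak in U2OS NC. Ribosomal protein genes have many processed pseudogenes that can share reads with them, and how such reads were placed is not given in the sources used here, so these sites are uncertain.

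**Figure D2:**
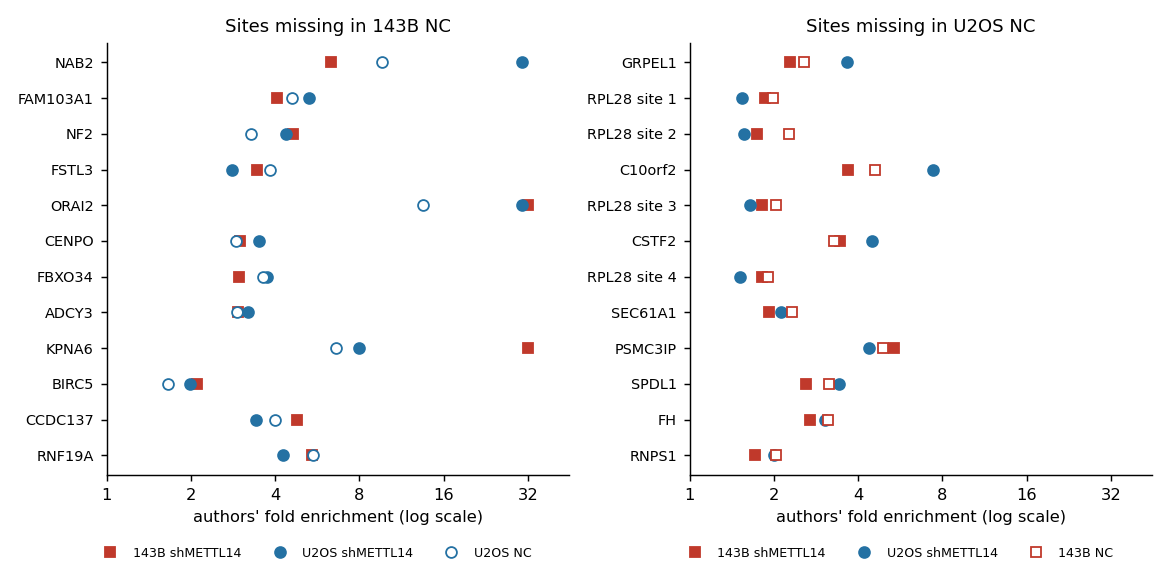
The authors' fold enrichment (horizontal log axis) of the 12 members per class with the lowest p-values in all 3 of their lists, one row per site, with the strongest at the top. Filled symbols are shMETTL14 lists and open symbols the control list that holds the site; NAB2 stands at 30.5 in U2OS shMETTL14 while the 4 RPL28 sites all lie below 2.3.

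By fold enrichment the typical member also ranked below the typical site in all 4 lists. The median percentile by fold was 39.7 to 43.3 over the lists for sites missing in 143B NC, 39.6 to 42.5 for those missing in U2OS NC and 51.3 to 55.3 for those in all 4 lists. The upper end differed between the classes, and members had to pass it in 3 lists, the others in 4. Above percentile 75 by fold in each of their lists stood 99 of the sites missing in 143B NC (14.1%), 46 of those missing in U2OS NC (7.52%) and 414 of those in all 4 lists (7.35%). Above percentile 90 the counts were 40 (5.68%) for sites missing in 143B NC, 10 (1.63%) for those missing in U2OS NC and 56 (0.994%) for those in all 4 lists. The 8 members of highest fold missing in 143B NC were all in 3' UTRs. SGPL1, the sphingosine-1-phosphate lyase, had folds of 24.0 in U2OS shMETTL14, 18.8 in 143B shMETTL14 and 44.9 in U2OS NC, and KIF14, a mitotic kinesin, had 25.1 in U2OS shMETTL14, 25.5 in 143B shMETTL14 and 19.3 in U2OS NC. Among the sites missing in U2OS NC, QRSL1, a subunit of the mitochondrial glutamyl-tRNA amidotransferase, had folds of 24.0 in U2OS shMETTL14, 53.2 in 143B shMETTL14 and 19.6 in 143B NC.

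High folds in these lists took few distinct values. In each list, folds of 10 or more lay on whole multiples of 1 step, within 0.051, for 88.0% of U2OS shMETTL14 peaks (step 1.09), 82.9% of 143B shMETTL14 peaks (step 1.11), 81.4% of U2OS NC peaks (step 1.28) and 81.2% of 143B NC peaks (step 1.30). Numbers spread evenly would fall there in 7.82% to 9.36% of cases. Members of high fold lay on the steps in 102 of 109 (U2OS shMETTL14), 133 of 137 (143B shMETTL14) and 83 of 91 (U2OS NC) sites missing in 143B NC. For sites missing in U2OS NC this was so in 77 of 86 (U2OS shMETTL14), 48 of 60 (143B shMETTL14) and 44 of 50 (143B NC). All 24 values of the 8 members of highest fold in each class did so. The steps were chosen after these folds were seen, so the shares are descriptions. Whether such values come from whole read counts over 1 shared denominator was not tested, and the denominators were not analysed here. In 143B shMETTL14, a fold of 10 or more was held by 19.5% of the sites missing in 143B NC and 9.80% of those missing in U2OS NC, against 8.55% of the sites in all 4 lists. In U2OS shMETTL14 the shares were 15.5%, 14.1% and 7.38% in the same order. The U2OS NC list gave 12.9% for sites missing in 143B NC and 7.58% for those in all 4 lists. The 143B NC list gave 8.17% for sites missing in U2OS NC and 8.52% for those in all 4 lists.

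The members lay in 3' UTRs more often, and at stop codons less often, than the sites found in all 4 lists. Of the sites missing in 143B NC, 272 were in 3' UTRs (38.6%, 35.0 to 42.3) and 82 at stop codons (11.6%, 9.37 to 14.3). Of those missing in U2OS NC, 225 were in 3' UTRs (36.8%, 32.9 to 40.7) and 88 at stop codons (14.4%, 11.7 to 17.4). Among the sites in all 4 lists, 22.3% were in 3' UTRs (21.2 to 23.4) and 27.8% at stop codons (26.7 to 29.0). Coding sequence held similar shares: 43.5% for sites missing in 143B NC, 40.0% for those missing in U2OS NC and 41.0% for those in all 4 lists. Sites missing in a knockdown list had 3' UTR shares of 31.5% (143B shMETTL14) and 33.9% (U2OS shMETTL14) and stop-codon shares of 14.4% and 15.0%. The 3' UTR intervals of these classes, 26.6 to 36.7 (143B shMETTL14) and 30.5 to 37.4 (U2OS shMETTL14), overlapped those of the members. Fewer stop-codon sites and more 3' UTR sites than among sites in all 4 lists are therefore not particular to gaps in the controls.

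**Figure D3:**
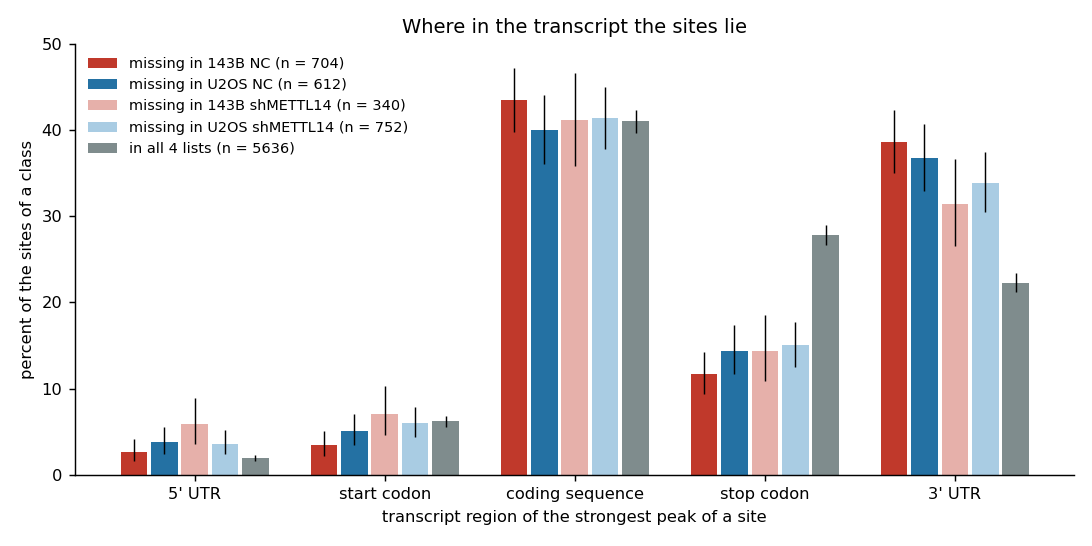
Percent of the sites of a class (vertical axis) by the transcript region of the strongest peak of each site, with exact 95% intervals. Sites missing in 143B NC and in U2OS NC stand left, sites missing in a shMETTL14 list beside them and sites in all 4 lists at the right; the stop codon holds 11.6% and 14.4% of the members' classes and 27.8% of the sites in all 4 lists.

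Rank and width moved with the region. Among sites in all 4 lists, the stop-codon share was 39.0% where the weakest percentile by p-value was above 75 and 18.5% (16.4 to 20.7) where it was at most 25. In that lowest stratum, 11.5% of the sites missing in 143B NC (46 of 400, 8.54 to 15.0) and 10.3% of those missing in U2OS NC (39 of 377, 7.46 to 13.9) were at stop codons. The 3' UTR shares there were 35.5% for sites missing in 143B NC (30.8 to 40.4), 36.9% for those missing in U2OS NC (32.0 to 42.0) and 30.4% for those in all 4 lists (27.9 to 33.1). For peaks over 150 and up to 300 nucleotides, stop-codon shares were 11.0% for sites missing in 143B NC, 11.6% for those missing in U2OS NC and 19.8% for those in all 4 lists. In these 2 strata the stop-codon intervals of members and of sites in all 4 lists did not overlap. The 3' UTR intervals overlapped in the lowest rank stratum and not in this width stratum, where the shares were 39.4% for sites missing in 143B NC (34.8 to 44.1), 39.8% for those missing in U2OS NC (34.7 to 45.03) and 29.9% for those in all 4 lists (27.7 to 32.1). They did not overlap either for weakest percentiles above 25 and at most 50, with 43.7% for sites missing in 143B NC (37.1 to 50.4), 39.8% for those missing in U2OS NC (32.7 to 47.2) and 28.9% for those in all 4 lists (26.5 to 31.3). Peaks over 300 nucleotides had 3' UTR shares of 40.3% for sites missing in 143B NC (32.6 to 48.3), 33.7% for those missing in U2OS NC (26.5 to 41.6) and 18.7% for those in all 4 lists (17.5 to 19.9). For peaks of up to 150 nucleotides the 3' UTR intervals overlapped. The shares were 33.3% for sites missing in 143B NC, 29.9% for those missing in U2OS NC and 30.4% for those in all 4 lists. In that order, weakest percentiles above 50 and at most 75 gave 41.1% (29.7 to 53.2), 25.5% (13.9 to 40.3) and 20.4% (18.3 to 22.6). Stop-codon intervals of some other strata overlapped, as where the weakest percentile was above 50 and at most 75: the stop-codon share was 16.4% for sites missing in 143B NC (12 of 73, 8.79 to 27.0), 29.8% for those missing in U2OS NC (14 of 47, 17.3 to 44.9) and 28.5% for those in all 4 lists (26.2 to 30.9). The weakest percentile is taken over 3 lists for members and over 4 for the others.

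At the lists' own threshold, the gene of a missing site mostly had other peaks in that control. For 472 of the 704 sites missing in 143B NC (67.0%, 63.4 to 70.5), the same gene had another peak in 143B NC. For 347 of the 612 sites missing in U2OS NC (56.7%, 52.7 to 60.7), it had another peak in U2OS NC. Sites missing in a knockdown list gave 60.3% for 143B shMETTL14 and 55.5% for U2OS shMETTL14. With p-values of 1e-05 or lower required in all lists, the shares were smaller, at 42.3% for sites missing in 143B NC and 36.4% for those missing in U2OS NC. That limit also removes peaks from the missing control, so by construction fewer genes can have another peak there. Without that limit, the shares at stop codons were lower than elsewhere, 48.8% for sites missing in 143B NC and 33.0% for those missing in U2OS NC, while in 3' UTRs they were 71.0% and 55.6% in the same order. Being the sole site on the gene in any list was seen for 16.2% of sites missing in 143B NC, 22.4% of those missing in U2OS NC and 23.2% of those in all 4 lists.

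Peaks of the missing control seldom lay right beside a member on the genome. Distances between peaks are counted on the genome, introns included. A peak in the next exon can thus be near on the transcript and far by this count. Distances along the transcript were not measured. Within 100 bp there were 19 such cases for sites missing in 143B NC and 25 for sites missing in U2OS NC. Within 1000 bp there were 197 (28.0%) and 155 (25.3%) in the same order. The closest, just outside the overlap rule, were CALCOCO1 (26 bp), SSH1 (28 bp) and HMGXB4 (29 bp) for 143B NC, and ST3GAL1 (8 bp), BCORL1 (11 bp) and PEAK1 (29 bp) for U2OS NC. At the other edge, sites on FOXRED2, IRGQ and VPS36 missing in 143B NC, and on MYO9B, E2F3 and PUM2 missing in U2OS NC, were joined by 1 bp. Such thin joins were few: 17 of the 704 and 19 of the 612 sites were held together by less than 30 bp. The peaks of all 3 lists overlapped each other directly at 654 sites missing in 143B NC (92.9%) and 565 missing in U2OS NC (92.3%).

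More than 1 site was missing in 143B NC on 49 genes, and in U2OS NC on 32 genes. NF2, the merlin tumour suppressor that acts upstream of the Hippo kinases, had 3 members in its 3' UTR on chromosome 22, all missing in 143B NC. At chr22:30092070-30092279 the folds were 6.26 in U2OS shMETTL14, 6.28 in 143B shMETTL14 and 5.78 in U2OS NC, and at chr22:30093388-30093688 they were 4.36, 4.62 and 3.28 in the same order. The third, at chr22:30092849-30093088, had folds of 20.7 in U2OS shMETTL14, 16.6 in 143B shMETTL14 and 14.1 in U2OS NC, all on the steps described above. NF2 had 5 sites in 143B shMETTL14 and 2 in 143B NC, and 4 in U2OS shMETTL14 and 5 in U2OS NC. ARID5B, a chromatin-binding transcriptional regulator, UBN2, a subunit of the HIRA histone chaperone complex, and PPP1R9A, the actin-binding neurabin, each had 3 members and no 143B NC peak at all. Their 9 sites had folds of 4.36 to 22.9 in U2OS shMETTL14, 8.86 to 19.9 in 143B shMETTL14 and 3.53 to 25.7 in U2OS NC. By p-value their percentiles ran from 36.1 to 93.5 in U2OS shMETTL14, 4.56 to 55.2 in 143B shMETTL14 and 11.3 to 96.1 in U2OS NC. In 143B shMETTL14 these high folds thus stood at low to middle ranks.

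Among genes with several sites missing in U2OS NC, MET, the hepatocyte growth factor receptor, had 2 members and no U2OS NC peak. Its 3' UTR site at chr7:116437992-116438440 had folds of 3.16 in U2OS shMETTL14, 2.82 in 143B shMETTL14 and 2.46 in 143B NC. ETS1, a transcription factor of the ETS family, also had 2 members and no U2OS NC peak, although 143B shMETTL14 held 6 sites on it and 143B NC 4. KANK1, an adaptor at focal adhesions, had 3 members between chr9:710985-711195 and chr9:712916-713334, in its 5' UTR and coding sequence. Their folds were 10.2, 21.8 and 9.80 in U2OS shMETTL14, 4.43, 4.29 and 5.54 in 143B shMETTL14 and 3.17, 3.32 and 4.15 in 143B NC, from 5' to 3'. U2OS NC held 1 KANK1 site, which lay 254 bp from the nearest of them.

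For 33 genes, sites fell in both classes. PCNT, which encodes the centrosome scaffold pericentrin, had 3 members missing in 143B NC and 2 missing in U2OS NC, all in its coding sequence, beside 2 sites found in all 4 lists. SUGP2, a putative splicing factor, had a 3' UTR site missing in 143B NC with folds of 30.5 in U2OS shMETTL14, 33.2 in 143B shMETTL14 and 16.7 in U2OS NC. Its coding-sequence site was missing in U2OS NC and had folds of 2.04 in U2OS shMETTL14, 3.26 in 143B shMETTL14 and 4.99 in 143B NC. On such genes each control list missed a different stretch of the transcript.

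Chromosome 22 stood apart for sites missing in 143B NC. Of its 174 sites in both shMETTL14 lists and U2OS NC, 41 had no 143B NC peak (23.6%, 17.5 to 30.6), against 11.1% over all chromosomes. With only the shMETTL14 peaks in the stronger part of their list by p-value (median or lower), 7 of 91 were without a 143B NC peak (7.69%), against 2.53% over all chromosomes. The other chromosomes ranged from 5.05% on chromosome 20 to 16.9% on chromosome 21. The 41 sites lay on 32 genes, among them NF2 and FOXRED2, and 21 were in 3' UTRs. For 27 of them the gene had a 143B NC peak elsewhere. The chromosome 22 share was 5.67% (8 of 141) for sites missing in 143B shMETTL14 and 6.34% (9 of 142) for those missing in U2OS NC. In all, chromosome 22 held 278 sites in U2OS shMETTL14, 277 in 143B shMETTL14, 296 in U2OS NC and 262 in 143B NC. For sites missing in U2OS NC, the highest shares were on X (21 of 117, 17.9%, 11.5 to 26.1) and on chromosome 9 (38 of 243, 15.6%, 11.3 to 20.8), against 9.80% over all chromosomes. These chromosomes were singled out after their values were seen, and DNA copy number and RNA level were not tested.

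**Figure D4:**
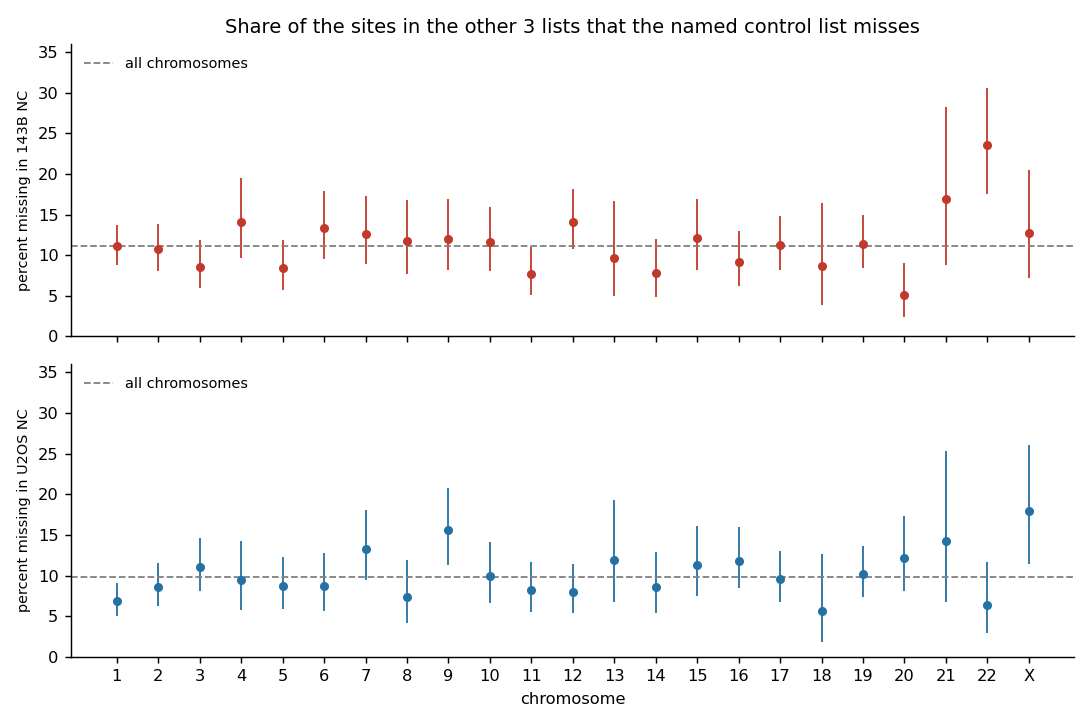
Percent of the sites present in the other 3 lists that have no peak in 143B NC (upper panel) or U2OS NC (lower panel), by chromosome, with exact 95% intervals. Dashed lines give the share over all chromosomes, 11.1% and 9.80%; chromosome 22 stands at 23.6% in the upper panel and at 6.34% in the lower.

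Gene lists were read against the shares of all 7374 sites in both shMETTL14 lists, of which 9.55% were missing in 143B NC alone and 8.30% in U2OS NC alone. For sites missing in 143B NC, 15 of the 73 sites on solute carrier genes were members (20.5%, 11.98 to 31.6), while 9 were missing in U2OS NC (12.3%, 5.80 to 22.1). Splicing factors and RNA helicases gave 4 of 161 for 143B NC (2.48%, 0.681 to 6.24) and 12 of 161 for U2OS NC (7.45%, 3.91 to 12.7). Ribosomal protein genes gave 0 of 40 for 143B NC, with an upper bound of 8.81%, and 6 of 40 for U2OS NC (15.0%, 5.71 to 29.8), 4 of these on RPL28. Ubiquitin ligases and deubiquitinases gave 19 of 181 for 143B NC (10.5%) and 7 of 181 for U2OS NC (3.87%, 1.57 to 7.81). For 143B NC, the intervals that excluded the share of all sites were those of the solute carriers and of the osteoblast and bone matrix genes, which lay above it, and of the splicing and ribosomal lists, which lay below it. For U2OS NC, the ubiquitin list lay below it, and so did heat shock proteins and chaperones with 1 of 65 (1.54%, 0.0389 to 8.28). With 34 lists and 2 classes read, and sites of 1 gene not independent, these are descriptions.

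Lists tied to bone and to cancer signalling held sites of both classes. Osteoblast and bone matrix genes gave 5 of 18 sites missing in 143B NC (27.8%, 9.69 to 53.5) and 1 missing in U2OS NC. COL12A1, a fibril-associated collagen, held 2 of the 5, with folds of 2.10 to 2.31 in U2OS shMETTL14, 2.33 to 2.41 in 143B shMETTL14 and 2.16 to 2.57 in U2OS NC. Hippo pathway genes gave 7 of 49 missing in 143B NC (14.3%, 5.94 to 27.2), 3 of them on NF2. They gave 1 missing in U2OS NC (2.04%, 0.0517 to 10.9), on the kinase STK4. Immediate early genes and MYC relatives gave 6 of 36 missing in 143B NC (16.7%, 6.37 to 32.8), 2 of them on JUND, an AP-1 subunit. They gave 1 missing in U2OS NC (2.78%, 0.0703 to 14.5), on KLF6. Receptor tyrosine kinases and MAPK genes gave 3 of 34 missing in 143B NC (8.82%, 1.86 to 23.7), NRAS among them. They gave 5 of 34 missing in U2OS NC (14.7%, 4.95 to 31.1), including MET and PDGFRA. Apoptosis genes gave 3 of 20 missing in 143B NC (15.0%, 3.21 to 37.9), with BIRC5 and BAX. They gave 4 of 20 missing in U2OS NC (20.0%, 5.73 to 43.7), with BBC3 and BIRC3. For the Hippo, immediate early, kinase and apoptosis lists, every interval included the share of all sites. That share was 9.55% for 143B NC and 8.30% for U2OS NC.

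Regulators of transcription and chromatin followed the shares of all sites. C2H2 zinc finger genes, the largest list, gave 41 of 365 missing in 143B NC (11.2%, 8.18 to 14.9) and 26 of 365 missing in U2OS NC (7.12%, 4.71 to 10.3). Histone modifiers gave 11 of 109 missing in 143B NC (10.1%, 5.15 to 17.3), among them the deubiquitinase BAP1. They gave 5 of 109 missing in U2OS NC (4.59%, 1.51 to 10.4), among them EZH2 and KMT2D. The EZH2 site, in the coding sequence of this catalytic subunit of Polycomb complex PRC2, had folds of 6.94 in U2OS shMETTL14, 4.30 in 143B shMETTL14 and 3.28 in 143B NC. SOX2, a transcription factor of stem cells, had a 3' UTR site with folds of 9.26 in U2OS shMETTL14, 27.7 in 143B shMETTL14 and 4.57 in U2OS NC, and no 143B NC peak. E2F1 and E2F3, which drive entry into S phase, each had a member at the start codon that was missing in U2OS NC. For E2F1 the folds were 5.17 in U2OS shMETTL14, 4.43 in 143B shMETTL14 and 5.22 in 143B NC.

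**Figure D5:**
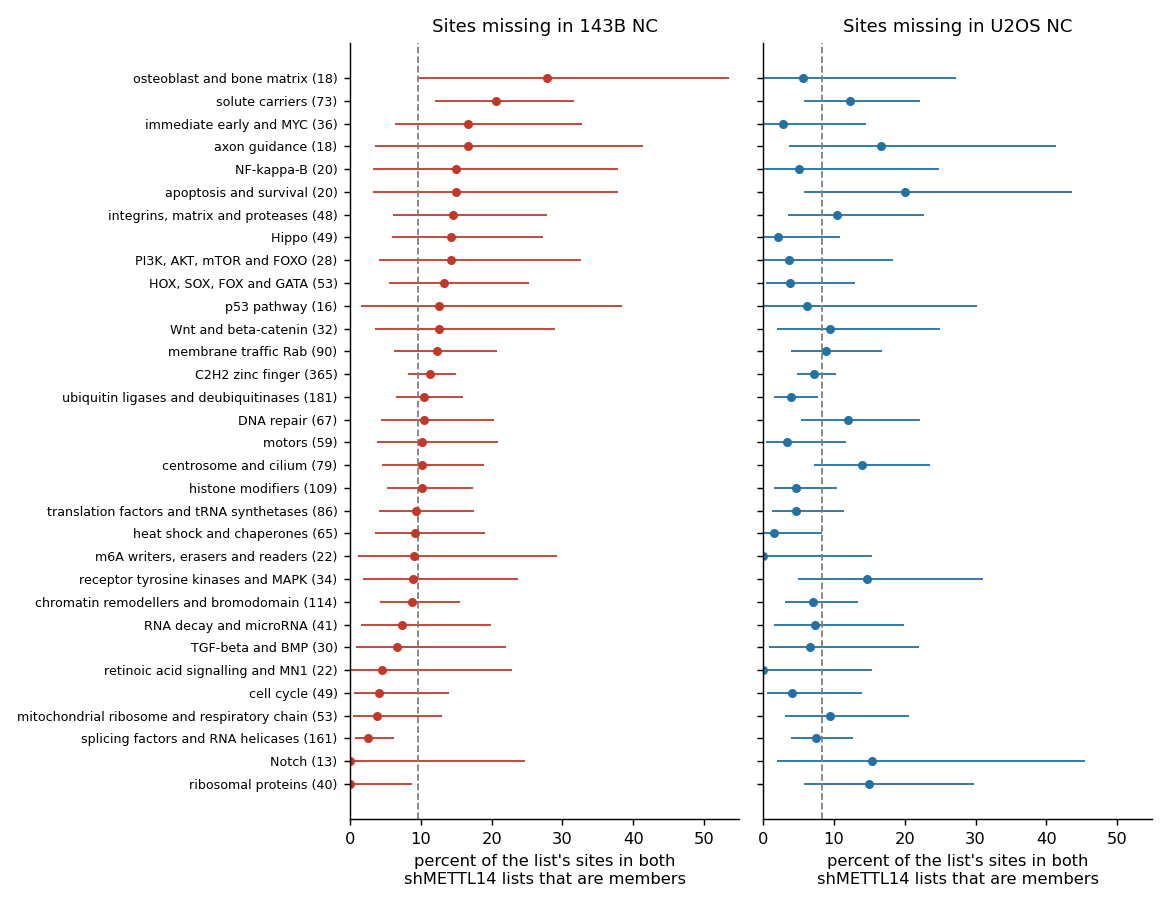
Percent of the sites of each gene list found in both shMETTL14 lists (number in brackets) that were missing in 143B NC alone (left) or U2OS NC alone (right), with exact 95% intervals, for lists of 13 or more sites. Dashed lines give the shares of all 7374 sites, 9.55% and 8.30%; most intervals include them, and splicing factors and RNA helicases lie at 2.48% in the left panel.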

How the data were processed

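Per the labels, m6A-enriched and input RNA of U2OS and 143B cells was sequenced, with 1 library of each kind per group. The submitters' processing notes name the tools FastQC 0.11.5, Trimmomatic and HISAT2 and the build hg19 (GRCh37). Neither peak caller, calling threshold, annotation nor depth is given in the sources used here. Per the file headers, each of the 4 lists has 13 columns. The p-value and the fold enrichment were deposited by the authors per peak. The fold is a ratio on a linear scale by its values, and its exact definition is not stated. The lists also hold the transcript length and region. Peaks of all lists were joined when spliced blocks on the same strand overlapped by at least 1 bp. The value of a site in a list is that of its peak with the lowest p-value, and its region that of its strongest peak. Percentiles are over the sites of a list. Coordinates count from 1. Shares carry Clopper-Pearson intervals at 95%.

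The members and gene lists were chosen with earlier results of these data known. Named per class were the 12 sites with the lowest largest p-value, the 8 with the highest mean fold percentile, up to 8 genes with several sites or with sites in both classes, up to 2 sites per gene list, the 3 closest gaps and the 3 smallest overlaps, METTL14, METTL3 and MN1. The text gives a part of them, and 1 site that the rule selects is not reported here. The fold steps, the rank and width strata and the chromosomes were chosen after values were seen. The joining was tested on simulated data, in which 4000 of 4000 sites were found. Alternatives changed the overlap, strand, blocks, p-value limit, list size and unit. Python 3.11.15, numpy 2.4.6, pandas 2.3.3, scipy 1.17.1 and matplotlib 3.10.9 were used. No sequence under the sites is shown, as the hg19 genome was not used here.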

Additional observations from a re-analysis of the deposited data

How the results depend on the processing

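Several values of the classes moved with the processing. With p-values of 1e-05 or lower required in all lists, 482 sites were missing in 143B NC and 305 in U2OS NC. These need not be members, since a site whose control peak was weaker than the limit then counts as missing. For sites missing in 143B NC, that limit gave 42.3% with another peak of the gene in that control, 32.8% in 3' UTRs, 19.1% at stop codons and 47.5% ranked lowest in 143B shMETTL14. For sites missing in U2OS NC it gave 36.4%, 28.9%, 22.6% and 63.9% for the same measures, the last in U2OS shMETTL14. The sites in all 4 lists then had 16.7% in 3' UTRs and 33.3% at stop codons. With only the shMETTL14 peaks whose p-value was the median of their list or lower, 90 sites were missing in 143B NC and 64 in U2OS NC. Those missing in 143B NC then gave 74.4% with another peak of the gene, 44.4% in 3' UTRs, 14.4% at stop codons, 53.3% ranked lowest in 143B shMETTL14 and 7.69% of the chromosome 22 sites. Those missing in U2OS NC gave 48.4% with another peak of the gene, 25% in 3' UTRs and 26.6% at stop codons. Of them, 68.8% ranked lowest in U2OS shMETTL14 and 20.3% were on the gene lists. They made up 2.33% of the chromosome 22 sites, against 1.81% over all chromosomes, a share that rests on few sites. With equal numbers of peaks per list, the lowest rank fell in the shMETTL14 list of the same line for 50.2% of sites missing in 143B NC and 51.1% of those missing in U2OS NC, and 52.4% of the sites missing in U2OS NC had another peak of the gene in U2OS NC. Counting genes in place of sites gave 264 genes missing in 143B NC and 322 missing in U2OS NC, so the larger class by sites was the smaller by this count. Taking the value of a site from its peak with the highest fold gave 11.6% at stop codons for sites missing in U2OS NC. Of the 106 named sites missing in 143B NC and the 94 missing in U2OS NC, 98 and 86 stayed members with an overlap of 50% of the shorter peak, and 42 and 25 with the limit of 1e-05. The causes of these shifts were not tested. No paired analysis was possible because each group has 1 list and no result comes from a test. Depth is unknown, so whether a missing peak was within reach of the library cannot be told.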
